A study of Mus musculus with 16 samples.

Results

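The genes described are the nuclear-encoded subunits of the respiratory chain, 83 of the 17555 genes that passed a filter on low counts in hippocampal RNA-seq of 16 mice. They were chosen by symbol, as the Nduf, Sdh, Uqcr, Cox4 to Cox8 and Atp5 genes without pseudogene, Gm or Rik names, and no measured value other than the filter entered the choice. The symbols matched 89 genes, of which 6 had too few counts and were left out: Ndufs6b, Cox7b2, Cox6c2, Ndufa11b, Cox8c and a second gene identifier of Atp5o. By symbol stem, 38 members belong to complex I, 4 to complex II, 8 to complex III, 16 to complex IV and 17 to complex V. Ndufa4 is counted with complex I by its symbol, although its product is now regarded as a subunit of complex IV, and Ndufb4c is annotated as a processed pseudogene despite its name.

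The chain sits in the inner mitochondrial membrane. Complexes I (NADH dehydrogenase) and II (succinate dehydrogenase) pass electrons to ubiquinone, complex III (cytochrome bc1) passes them to cytochrome c, complex IV (cytochrome c oxidase) passes them to oxygen, and complex V (ATP synthase) uses the resulting proton gradient to make ATP. The mitochondrial genome encodes a few membrane subunits of every complex but complex II, and all other subunits are encoded in the nucleus, translated in the cytosol and imported. Neurons depend on this chain for most of their ATP. Complex I oxidises NADH to NAD+, the cofactor whose precursor, nicotinamide riboside (NR), was given in this study.

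The mice were wild-type (WT) or hTau.P301S, a line in which the Thy1 promoter drives human Tau with the P301S mutation, so that the transgene is expressed mainly in neurons. Per the labels, mice of 12 months received vehicle water or 6 mM NR in drinking water for 3 months and were 15 months old at the end. The paper's text gives other ages and durations in places. There were 4 groups of 4 mice: WT, WT + NR, hTau.P301S (below Tau) and Tau + NR, and no other allele or agent is named for any group. All 16 mice had behavioural tests before the tissue was taken, and each library came from the hippocampus of 1 mouse as far as the labels tell.

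The libraries held 16490261 to 21915362 counts, with a median of 18415134. The mouse gene Thy1 was at 424 to 633 CPM (counts scaled to a common library size after TMM normalization) in the 8 WT mice and at 667 to 1640 CPM in the 8 Tau mice, without overlap, while mouse Mapt overlapped at 188 to 493 CPM. Markers of hippocampal fields summed to 189 to 364 CPM in all mice, and no marker of any list was at 0 in all 16. One library stood apart. In Tau replicate 1, 14.4% of counts fell on mitochondrially encoded genes against 4.48% to 7.07% in the other 15 mice. Of the remaining counts, 9.22% fell on genes with a listed length under 1 kb against 1.34% to 2.47%. In this library 19467 genes had a count against at least 22199. Its summed microglial markers were 1576 CPM against 218 to 449 CPM, and its neuronal markers, at 4445 CPM, lay near the lowest of the others, 4389 CPM. Each comparison that uses this mouse is therefore given with and without it. Other mice differed in markers too. Striatal markers summed to 990 CPM in WT replicate 2, 316 in Tau + NR replicate 4 and 204 in WT + NR replicate 3. Their median was 71.0 CPM over the mice other than Tau replicate 1. Neuronal markers were at 4607 CPM in WT replicate 2 and 4389 CPM in WT + NR replicate 3. These mice also held the highest summed members outside Tau replicate 1, as given below. The part of such tissue in the members' levels was not tested. The tissue was bulk, so fewer cells of a type and less RNA per cell cannot be told apart.

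Promoters of nuclear respiratory genes are known for sites of NRF1, of the ETS factor GABP and of YY1, and these 3 motifs were searched in the window from 250 bases before to 50 after each gene's start, on both strands. RefSeq (GRCm38.p6) gave a window for 67 of the 83 members. Members without one included Atp5a1, Atp5mpl, Cox4i1, Cox4i2, Cox6a2, Cox6c, Ndufa2, Ndufa4l2, Ndufb4c, Ndufb9, Ndufs1, Sdhc, Uqcrb, Uqcrc2 and Uqcrq. The NRF1 letters GCGCATGCG were found for 8 of the 67 members, 11.9%, against 1.95% of 27025 genes. The ETS letters CCGGAAG were found for 16 members, 23.9% against 9.93%, and the YY1 letters AAGATGGCG for 7, 10.4% against 1.64%. The Sp1 letters GGGCGG were found for 27 members, 40.3%, close to the 38.2% of all genes. A match describes the letters in the window and not a bound site. The sequences below run 5′ to 3′ from 190 bases before to 10 after the start, all on the minus strand, with NRF1 and ETS matches in capitals. They show 4 members with an NRF1 match, Uqcr11, Cox6a1, Ndufa8 and Atp5k, beside the muscle isoform Cox8b, which had neither match.
Uqcr11 at chr10:80406812-80407011: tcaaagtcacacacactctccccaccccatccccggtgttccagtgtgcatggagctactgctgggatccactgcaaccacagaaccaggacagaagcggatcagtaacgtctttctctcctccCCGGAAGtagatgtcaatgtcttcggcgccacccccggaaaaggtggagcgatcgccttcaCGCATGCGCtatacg
Cox6a1 at chr5:115348949-115349148: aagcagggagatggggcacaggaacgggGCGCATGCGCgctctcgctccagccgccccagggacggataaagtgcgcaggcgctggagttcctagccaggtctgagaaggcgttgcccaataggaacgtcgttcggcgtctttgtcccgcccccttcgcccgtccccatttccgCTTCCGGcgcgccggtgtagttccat
Ndufa8 at chr2:36049329-36049528: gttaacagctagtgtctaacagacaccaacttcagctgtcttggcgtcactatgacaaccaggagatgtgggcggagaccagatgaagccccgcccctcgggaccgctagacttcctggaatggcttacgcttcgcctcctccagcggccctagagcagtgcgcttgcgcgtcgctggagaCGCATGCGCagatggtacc
Atp5k at chr5:108434390-108434589: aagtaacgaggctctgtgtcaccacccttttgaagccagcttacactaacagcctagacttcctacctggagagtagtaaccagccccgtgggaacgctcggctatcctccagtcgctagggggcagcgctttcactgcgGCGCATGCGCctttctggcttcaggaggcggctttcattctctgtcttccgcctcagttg
Cox8b at chr7:140900437-140900636: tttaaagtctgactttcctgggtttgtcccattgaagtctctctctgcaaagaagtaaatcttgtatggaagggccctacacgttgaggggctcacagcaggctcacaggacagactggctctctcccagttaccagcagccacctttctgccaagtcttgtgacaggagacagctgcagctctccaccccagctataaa
Uqcr11 and Cox6a1 held both motifs, while Ndufa8 and Atp5k held NRF1 alone in these stretches.

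Levels were compared between genes as CPM per kb of listed length, averaged over the 8 WT mice with and without NR (SD over these mice). Every member was above 1 CPM per kb and 17 of 83 were above 100. Cox8a, a small subunit of complex IV, stood highest at 718 ± 96.6 CPM per kb (n = 8), followed by Cox6a1 at 541 ± 67.7 and Cox4i1 at 313 ± 67.3. The catalytic F1 subunits of ATP synthase came next, Atp5a1 (alpha) at 287 ± 31.2 and Atp5b (beta) at 260 ± 30.7, and did not differ from Cox4i1 beyond their spread. Cox6b1 was at 180 ± 35.2, Uqcr10 at 152 ± 30.4, Ndufa4 at 137 ± 31.4 and Sdha, the flavoprotein of complex II, at 103 ± 10.3 CPM per kb. By complex, the median member was at 52.6 CPM per kb in complex I, 55.4 in II, 79.2 in III, 85.3 in IV and 55.8 in V. The 19 catalytic or core subunits had a median of 61.8 CPM per kb and the other 64 subunits one of 54.7.

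The isoform sets of complex IV spread over the widest range. The ubiquitous isoform lay far above the tissue-restricted one in the sets that hold both. Cox4i1 was at 313 and Cox4i2, an isoform of lung, at 1.82 ± 0.68 CPM per kb. Cox6a1 was at 541 and the heart and muscle isoform Cox6a2 at 4.48 ± 0.75, Cox6b1 at 180 and the testis isoform Cox6b2 at 4.80 ± 3.59, and Cox8a at 718 and the muscle isoform Cox8b at 12.0 ± 13.9. Cox7a2 (107 ± 26.2) and Cox7a2l (120 ± 23.8) overlapped, while the muscle isoform Cox7a1 was at 2.42 ± 1.5. Ndufa4l2, a paralog of Ndufa4, was at 2.45 ± 0.72. The 3 genes for the c subunit of ATP synthase encode the same mature protein and stood in the order Atp5g3 (103 ± 21.1), Atp5g2 (41.9 ± 8.33) and Atp5g1 (22.4 ± 4.20). Listed lengths ran from 360 to 8086 bases, and long genes such as Ndufs1 (16.5 ± 1.30 CPM per kb) depend on that length for their place.

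**Figure D1:**
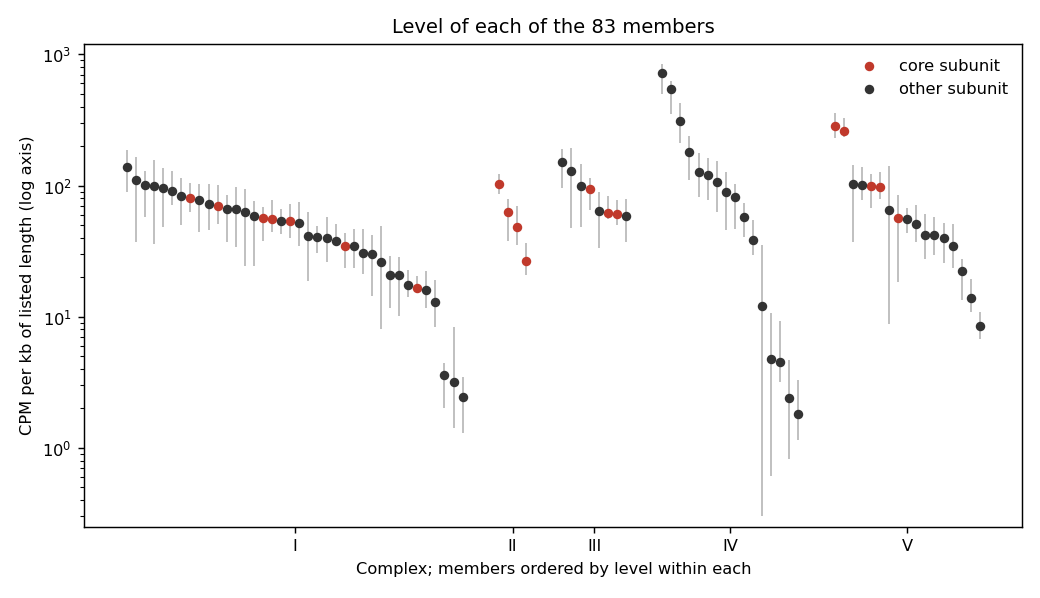
Level of each of the 83 members in CPM per kb of listed length (log axis), ordered within complexes I to V. Points are means of the 8 WT mice, red for core subunits, and lines run from the lowest to the highest of the 15 mice other than Tau replicate 1 (the line of Cox8b, at 0 in 1 mouse, is cut above the axis floor). Complex IV holds both the highest level, Cox8a at 718, and the lowest, Cox4i2 at 1.82.

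Over the 15 mice other than Tau replicate 1, 5 members varied by less than 1.5-fold between the highest and the lowest mouse: Ndufs1 (1.33), Atp5b (1.41), Sdha (1.42), Ndufa10 (1.44) and Uqcrc2, at the limit. All but Ndufa10 are core subunits. The spread of log2 CPM over these mice had a median SD of 0.231 for core subunits and 0.326 for the others. Sdha was at 446, 508, 398 and 389 CPM in the 4 WT mice, 382, 404, 457 and 418 in WT + NR, 422, 433, 490 and 414 in Tau and 358, 432, 391 and 395 in Tau + NR, so that all 4 groups overlapped. Ndufs1, the largest subunit of complex I, was at 134, 157, 125 and 131 CPM in WT, 124, 136, 130 and 134 in WT + NR, 157, 141, 160 and 164 in Tau and 126, 137, 135 and 130 in Tau + NR. The Tau mice lay above the Tau + NR mice here, and Tau replicate 1 was within the range of its group. At the other end, 10 members varied by over 4-fold.

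The summed CPM of the 83 members were 11621, 13739, 9604 and 8829 in WT, 9484, 9108, 11920 and 10388 in WT + NR, 59916, 9269, 11701 and 9836 in Tau, and 7643, 10056, 8338 and 9301 in Tau + NR. Tau replicate 1 thus carried several times the total of any other mouse, and the remaining 15 mice overlapped between all groups. The Tau + NR group held the 2 lowest totals, replicates 1 and 3, and its highest mouse stayed below the group mean of WT + NR, 10225 ± 1251 CPM (SD, n = 4). As the median over members of the log2 deviation from the WT mean, the 4 Tau + NR mice were at -0.56, -0.06, -0.39 and -0.14, the WT mice at 0.16, 0.46, -0.14 and -0.26 and the WT + NR mice at -0.16, -0.25, 0.25 and -0.04. The share of counts on genes under 1 kb, among counts outside mitochondrially encoded genes, moved with these sums. It was 1.34% and 1.37% in Tau + NR replicates 1 and 3, the lowest 2 of all mice. WT replicate 2 and WT + NR replicate 3 were at 2.47% and 2.25%, the highest of the 15. This share includes the 23 members under 1 kb, so it was bound in part to move with the sums. Over other genes under 1 kb, the median log2 deviation was -0.20 and -0.19 in those Tau + NR mice. It was 0.21 and 0.13 in those WT and WT + NR mice, and Tau replicate 4 was lowest at -0.21. Medians after removal of the trend over gene length are given with the comparisons, and any further part of this share in the members' levels was not tested.

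**Figure D2:**
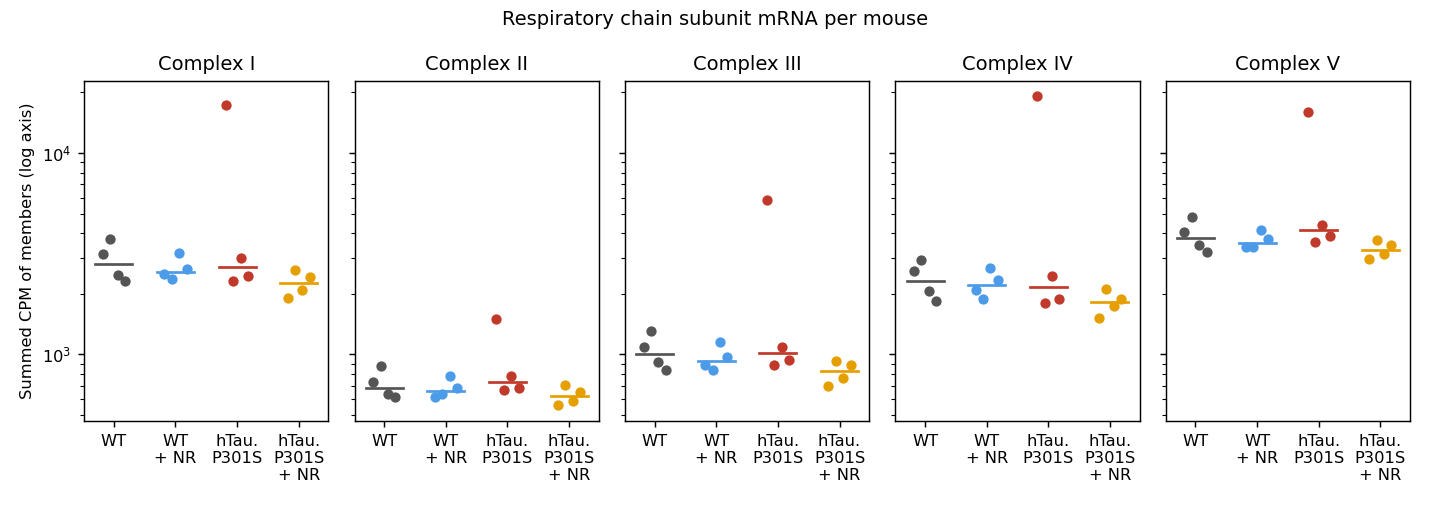
Summed CPM of the members of complexes I to V in each mouse (log axis), by group, with a line at the group median. Tau replicate 1 is the single high point in every panel (members summed: 59916 CPM), and the other 15 mice lie between 7643 and 13739 CPM.

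In Tau replicate 1, 78 of 83 members were above all 15 other mice and none was below them. The count was 37 of 38 in complex I, 3 of 4 in II, 8 of 8 in III, 14 of 16 in IV and 16 of 17 in V. Relative to the median of the other mice, the median ratio was 8.21 in complex I, 2.89 in II, 8.36 in III, 8.87 in IV and 6.13 in V. Core subunits had a median ratio of 3.21 and the other subunits one of 8.70. Cox8a reached 3721 CPM, Cox6a1 3244 CPM and Atp5b 3349 CPM, and complex IV summed to 19091 CPM, above complex V at 16068 CPM, whereas complex V was highest in the median of the other 15 mice. The exceptions were Sdha, Ndufs1, Atp5s, Cox8b and Cox6b2. Members were not the only genes raised in this library. Its median log2 deviation was 1.47 over other genes under 1 kb, 1.04 over other genes of 1 to 2 kb and -0.33 over other genes of at least 2 kb. Members of at least 2 kb were at 2.05, core subunits at 1.66 and mitochondrially encoded genes at 1.57.

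**Figure D3:**
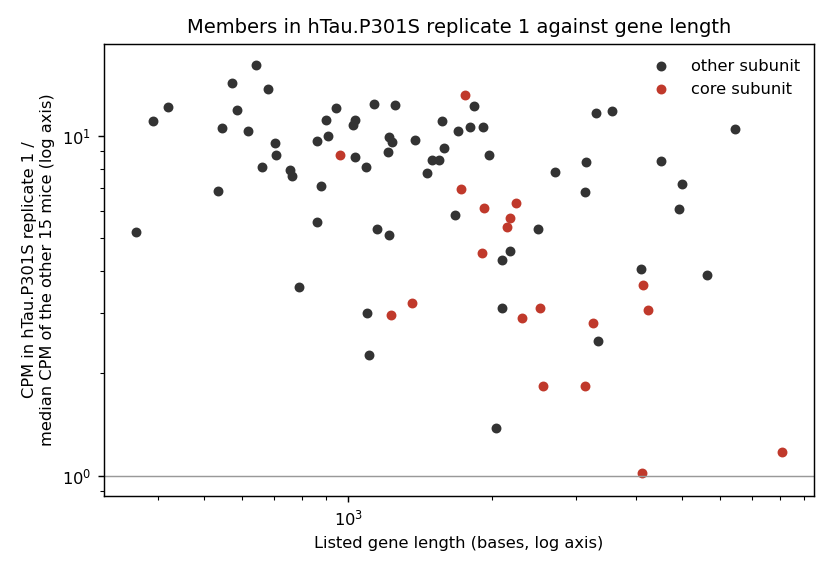
Ratio of CPM in Tau replicate 1 to the median of the other 15 mice (log axis) against listed gene length (bases, log axis), 1 point a member, red for core subunits. Most members lie above 1, with a median of 7.91, and Sdha and Ndufs1 lie nearest to 1. Some other long members lie far above it. Atp5l (6443 bases) was at 128 CPM per kb against a median of 12.2, and Ndufb5 (4995 bases) at 103 against 14.3.

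Tau + NR against WT + NR compares the genotypes on NR without that library. Most members were lower in Tau + NR, by small amounts: 75 of 83 were lower and 8 higher, with a median log2 fold change of -0.25 against -0.02 over all 16671 genes tested. None passed the call rule (edgeR, adjusted p under 0.05 and a log2 change over 0.5), which 9 genes or 0.054% of all passed. At an unadjusted p under 0.05, 16 members were lower, where 3.67% of all genes were, and 1 was higher, where 2.42% were. Of the 16, 9 belong to complex I, 4 to IV, 2 to V and 1 to III, and 1 is a core subunit, Ndufs3. Over core subunits the median was -0.13 and over the other subunits -0.28. Short genes as a class had lower medians too: all genes under 1 kb had a median of -0.18, members under 1 kb one of -0.43, and members of at least 2 kb one of -0.16 against -0.00091 for all genes of that length. With the trend over gene length removed, 13 members were lower at p under 0.05 (3.45% of all genes) and 2 higher (2.72%), with a median of -0.17. Without WT + NR replicate 3, the mouse of its group with the highest total, the median was -0.12, with 21 members higher and 62 lower and 11 lower at p under 0.05. Markers of other cells differed between the same groups. All 3 red blood cell markers tested were lower at p under 0.05, with a median of -2.58, and their summed CPM ran from 1.18 to 2.46 in Tau + NR against 7.17 to 19.2 in WT + NR. All 5 choroid plexus markers were lower, with a median of -2.10 and 1 past that limit. The part of these cells in the members' differences was not tested.

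Ndufa1, a small membrane subunit of complex I encoded on the X chromosome (chrX:37187588-37191163, GRCm38), was at 34.4, 29.7, 47.2 and 40.2 CPM in WT + NR and at 15.0, 25.5, 15.1 and 24.2 CPM in Tau + NR. The groups did not overlap. The log2 fold change was -0.92 ± 0.22 (SE; edgeR adjusted p = 0.662), and over 21 alternatives it stayed between -1.07 and -0.79 with adjusted p from 0.0442, under DESeq2, to 1.0. DESeq2 called 58 of the 16671 genes there, or 0.348%, and no other member. Uqcr11, a small subunit of complex III (chr10:80402997-80406830), whose promoter is shown above, was at 73.6, 55.2, 87.8 and 82.6 CPM in WT + NR and 30.6, 49.8, 36.2 and 53.9 in Tau + NR, a log2 fold change of -0.81 ± 0.21 (adjusted p = 0.757). Atp5g1, a c-subunit gene of ATP synthase (chr11:96068852-96075670), was at 93.5, 93.5, 136 and 122 CPM in WT + NR and 66.0, 81.6, 76.5 and 84.7 in Tau + NR (-0.53 ± 0.15). The other c-subunit genes were at -0.18 ± 0.14 (Atp5g2) and -0.58 ± 0.28 (Atp5g3).

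Ndufa3 was at -0.77 ± 0.22, Ndufs6 at -0.48 ± 0.15, Ndufa5 at -0.45 ± 0.13, Cox6a1 at -0.44 ± 0.13 and Cox7a2l at -0.44 ± 0.14, each with an adjusted p from 0.757 to 0.781. In all, 9 members were lower without overlap of the 4 against 4 mice, where 2.11% of all genes were: Atp5g1, Cox6a1, Ndufa1, Ndufa3, Ndufa5, Ndufb6, Ndufs3, Ndufs6 and Uqcr11. For Atp5g1, Ndufa1 and Uqcr11 the exact two-sided permutation test gave p = 0.0286, the smallest that 4 against 4 mice allow. Any gene without overlap gets this value, so it adds nothing to the lack of overlap. Ndufa10, an accessory subunit of complex I, was the member higher without overlap (1.62% of all genes), at 126, 124, 117 and 122 CPM in WT + NR and 132, 128, 136 and 136 in Tau + NR, a log2 change of 0.12 ± 0.08. The pseudogene Ndufb4c was higher by 1.05 ± 0.36 at 0.677 to 1.63 against 1.51 to 3.23 CPM, and its reads cannot be told apart from those of its parent gene with these counts. Without Tau + NR replicate 2, which had the highest total of its group, 27 members were lower at p under 0.05 in place of 16.

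The same genotypes without NR gave the opposite direction when all mice were used. In Tau against WT, 80 of 83 members were higher, with a median log2 fold change of 1.16 against 0.02 over 16375 genes, yet none was called, where 0.00611% of all genes were, and 2 were higher at p under 0.05, where 3.41% of all genes were. None was lower at that limit, where 3.73% of all genes were. With the length trend removed the median was 0.42, with 74 members higher and 1 of them at p under 0.05 (4.4% of all genes). Without Tau replicate 1 the direction turned: 67 of 83 were lower, with a median of -0.24, or -0.16 with the length trend removed as well. At p under 0.05, 3 members were then lower (6.63% of all genes) and 1 higher (5.16%). The 10 core subunits that were lower and the 9 that were higher balanced to a median of -0.01, while the other 64 subunits had one of -0.30. The 3 lower members were Ndufb2 (-0.56 ± 0.17, adjusted p = 0.322), Ndufa2 (-0.78) and Ndufv3 (-0.56), all of complex I.

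Cox6a2 was higher in Tau mice in every genotype comparison and alternative that was run. It encodes the heart and skeletal muscle form of subunit VIa of cytochrome c oxidase (chr7:128205435-128206387) and was at 3.18, 2.97, 3.43 and 3.35 CPM in WT, 2.16, 3.28, 3.60 and 2.43 in WT + NR, 46.0, 5.51, 5.29 and 6.32 in Tau, and 3.05, 3.13, 4.54 and 6.12 in Tau + NR. All 4 Tau mice lay above all 4 WT mice, as did 3.55% of all genes, and the Tau + NR mice overlapped WT + NR. The exact two-sided permutation p = 0.0286 of Tau against WT follows from that separation and adds nothing to it. The log2 fold change of Tau against WT was 2.30 ± 0.75 (edgeR adjusted p = 0.598), and 0.81 ± 0.21 (adjusted p = 0.298) without Tau replicate 1. Its ubiquitous counterpart Cox6a1 was at 420, 440, 341 and 312 CPM in WT and 299, 422 and 342 CPM in Tau replicates 2 to 4, with -0.10 ± 0.18 without replicate 1.

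Ndufb2, an accessory subunit of complex I (chr6:39592574-39603382), was lower in Tau replicates 2 to 4 than in all 4 WT mice. With replicate 1 the Tau and WT groups overlapped. It was at 18.1, 23.3, 18.3 and 17.9 CPM in WT and at 14.3, 13.9 and 11.4 CPM in Tau replicates 2 to 4, but at 69.6 CPM in replicate 1. On NR it was at 17.9, 20.4, 25.1 and 20.7 CPM in WT and 16.985, 16.7, 18.8 and 17.2 CPM in Tau, which overlapped. DESeq2 with all 4 groups in one fit and without Tau replicate 1 called it in Tau against WT (-0.56, adjusted p = 0.0147), where it called 474 of 17897 genes, or 2.65%. No other member was called in that comparison under the alternatives run.

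**Figure D4:**
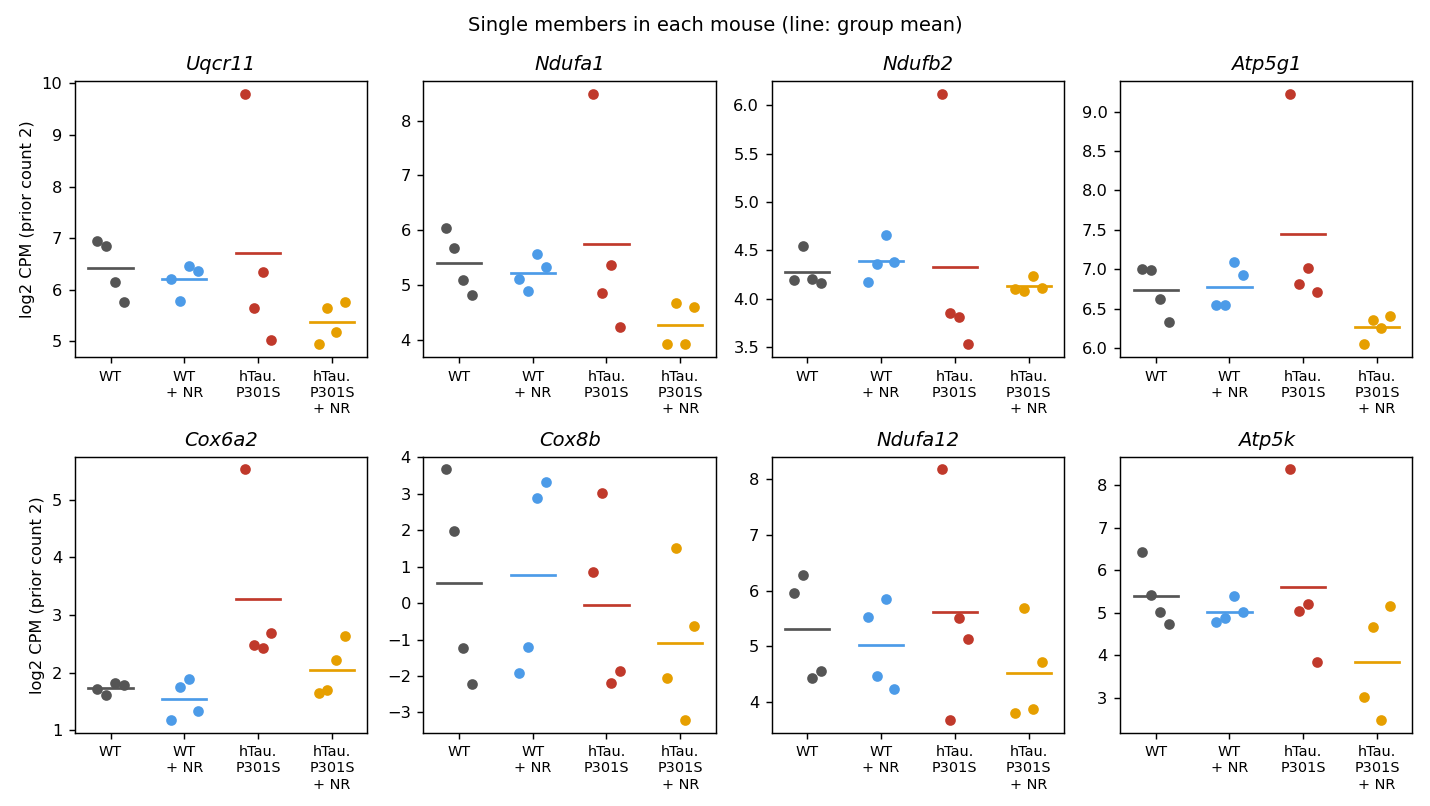
log2 CPM (prior count 2) of 8 members in each mouse, by group, with a line at the group mean. Tau replicate 1 is the highest point in 7 of the panels and not for Cox8b, and Cox6a2 in the Tau mice lies above all 4 WT mice.

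Within Tau mice, NR was compared between 2 groups that differ in this library. With all 8 mice, all 83 members were lower in Tau + NR, with a median log2 fold change of -1.58 against -0.03 over all genes, and 35 were lower at p under 0.05, where 7.01% of all genes were. None was higher, where 5.86% of all genes were at that limit, and none was called, where 0.0061% were. With the length trend removed the median was -0.73, with 80 members lower and 16 of them at p under 0.05 (6.74% of all genes). Without Tau replicate 1 the median was -0.17, and 11 members were lower (7.4% of all genes) and 1 higher (10.6%). Core subunits made up 8 of the 11: all 19 were lower, with a median of -0.22, while 3 of the 64 other subunits passed that limit and their median was -0.14. The 2 sets were not tested against each other. Neuronal markers were lower over the same mice: all 7 were, with a median of -0.29 and 2 at p under 0.05, and they summed to 8511 to 10799 CPM in Tau replicates 2 to 4 and 6336 to 8955 CPM in Tau + NR. Some other lists did not move with them. Of 5 interneuron markers 3 were higher, 2 of them at p under 0.05, and 2 were lower. All 4 striatal markers were higher, with a median of 1.37 and 3 past that limit. All 3 ependymal markers were higher too, with 2 past it. The part of these cells and tissues in the members' difference was not tested. The count with all 8 mice was 56 to 68 when one of Tau replicates 2 to 4 was left out and 0 to 5 without one of the Tau + NR mice. Without Tau replicate 1, members under 1 kb had a median of -0.24 with none past that limit, members of at least 2 kb one of -0.18 with 9, and with the length trend removed 11 were lower (8.81% of all genes) and 2 higher (9.44%), with a median of -0.13.

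Core subunits past that limit included Uqcrc1 (-0.32 ± 0.11), Atp5a1 (-0.36 ± 0.12), Ndufs3 (-0.39 ± 0.14), Uqcrc2 (-0.30 ± 0.11), Ndufv1 (-0.39 ± 0.16), Ndufs1 (-0.22 ± 0.10) and Atp5d (-0.37 ± 0.16), with adjusted p from 0.178 to 0.274. Ndufv1 carries the NADH site of complex I, and Uqcrc1 and Uqcrc2 are the core proteins of complex III. Atp5a1 was at 977, 1116 and 1042 CPM in Tau replicates 2 to 4 and 1626 in replicate 1, against 725, 889, 741 and 872 in Tau + NR, and the groups did not overlap. The Tau + NR mice lay near WT (939, 1113, 854 and 787 CPM) and WT + NR (846, 855, 911 and 887 CPM). Atp5b was at 1103, 1361 and 1263 CPM in Tau replicates 2 to 4 and 1001, 1113, 1110 and 1012 in Tau + NR (-0.22 ± 0.12). No member of complex II passed that limit, although all 4 were lower, with a median of -0.18 against -0.15 in complex I. Sdha was at -0.17 ± 0.11, Sdhb at -0.20 ± 0.14, Sdhc at -0.08 ± 0.13 and Sdhd at -0.26 ± 0.20. In complex IV none passed it either, with 15 of 16 members lower and a median of -0.20.

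Atp5g1 had the smallest p of all members here. It was at 600, 112, 130 and 105 CPM in Tau and 66.0, 81.6, 76.5 and 84.7 in Tau + NR, without overlap. The exact two-sided permutation p = 0.0286 follows from that separation. The log2 fold change was -1.64 ± 0.58 (edgeR adjusted p = 0.367) and, without Tau replicate 1, -0.57 ± 0.12 (adjusted p = 0.0755). In WT it was at 128, 127, 98.8 and 80.2 CPM, and WT + NR was at 0.04 ± 0.19 to it. In all, 8 members were lower without overlap, where 5.54% of all genes were: Atp5a1, Atp5g1, Ndufa9, Ndufs1, Ndufs3, Ndufv1, Uqcrc1 and Uqcrc2. Ndufb2 was the member higher in Tau + NR at p under 0.05 without replicate 1 (0.41 ± 0.13, adjusted p = 0.165).

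In WT mice, no member differed with NR at the limits used. At p under 0.05 none was lower and none higher in WT + NR with edgeR, where 0.419% and 0.371% of all genes were. The calls were 0 among members and 0% of all 16714 genes, and DESeq2 gave 0 members at p under 0.05 in either direction. The median log2 fold change was -0.11, with 74 of 83 members lower, and it was 0.01 without WT replicate 2, the WT mouse with the highest total. With the length trend removed the median was -0.08, with 65 members lower and 18 higher. Cox5b had the smallest p (-0.35 ± 0.20, edgeR adjusted p = 1.0), and Atp5k the largest change (-0.52 ± 0.35). Core subunits lay between -0.18 and -0.02. A p that misses the limit does not show that NR left these genes as they were.

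The difference between the 2 NR effects was tested directly. The interaction was negative for 82 of 83 members, with a median of -1.45, and 14 were lower at p under 0.05, where 4.63% of all genes were, and none higher, where 3.29% were. None passed an adjusted p under 0.05, nor did any gene (0%). DESeq2 called 18 genes there, none of them a member. Atp5g1 was at -1.65 ± 0.63 (adjusted p = 0.558), Cox6a1 at -1.95 ± 0.82 and Ndufa1 at -2.25 ± 0.98. The count of 14 was 46 to 58 without one of Tau replicates 2 to 4, stayed at 14 without WT replicate 2 and was 1 to 8 without any one of the other mice. With the length trend removed the median was -0.74, with 4 members lower at p under 0.05 (4.29% of all genes). Without Tau replicate 1 the median was -0.07, or -0.09 with the length trend removed, with 30 members higher and 53 lower. One member, Atp5g1, was then lower at p under 0.05 (-0.61 ± 0.24, adjusted p = 0.639; 3.35% of all genes), and none was higher (4.15%).

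**Figure D5:**
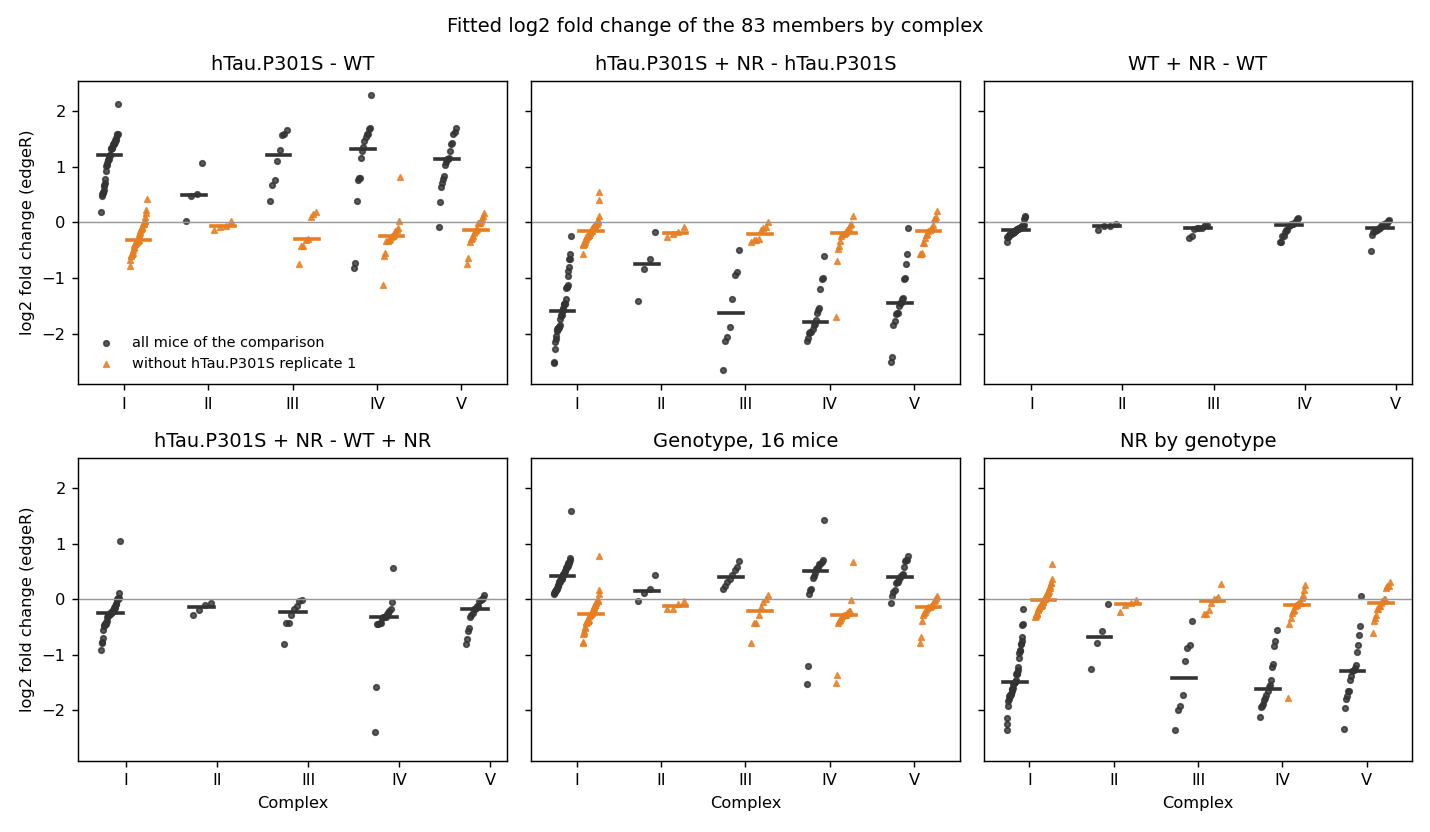
Fitted log2 fold change of the 83 members by complex in the 6 comparisons, 1 point a member with a line at the median. Black points use all mice of the comparison and orange triangles leave out Tau replicate 1: without it the median moved from 1.16 to -0.24 in hTau.P301S against WT and from -1.58 to -0.17 in hTau.P301S + NR against hTau.P301S.

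Over all 16 mice, with NR as a term, 79 of 83 members were higher in Tau mice, with a median of 0.41 against 0.01 over 17555 genes. None was called (0.12% of all genes), 3 were higher at p under 0.05 (3.36%) and 1 lower (4.39%). Those 3 were Ndufb4c (1.59 ± 0.52), Cox6a2 (1.42 ± 0.48, adjusted p = 0.486) and Ndufa10 (0.35 ± 0.16), and the lower one was Cox6b2 (-1.20 ± 0.54). Without Tau replicate 1, with 7 against 8 mice, 76 of 83 were lower with a median of -0.24, 28 lower at p under 0.05 (7.87% of all genes) and 3 higher (5.43%). Of the 28, 15 belong to complex I, 6 to IV, 4 to III and 3 to V, and 1 is a core subunit, Atp5e (-0.68 ± 0.25). With the length trend removed as well, 21 were lower (7.59% of all genes) and 3 higher (6.64%), with a median of -0.15. Red blood cell markers were lower over the same 15 mice, with 3 of 4 called and a median of -2.93, and all 5 choroid plexus markers were lower, with a median of -1.43. Their part in the members' differences was not tested. This fit shares its mice with the pairwise comparisons and is not an independent look at them.

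Ndufb2 (-0.40 ± 0.10, adjusted p = 0.138), Uqcr11 (-0.78 ± 0.21, adjusted p = 0.174), Ndufa1 (-0.78 ± 0.21), Ndufa2 (-0.79 ± 0.22), Ndufa3 (-0.63 ± 0.18) and Cox7a2l (-0.39 ± 0.12) led the lower members in that fit, and Cox6a2 was at 0.67 ± 0.17 (adjusted p = 0.151). None passed edgeR's adjusted limit. DESeq2 on the same 15 mice called 210 of 17897 genes, or 1.17%, and 5 members, Uqcr11, Ndufa1, Ndufa2 and Ndufa3 as lower (adjusted p from 0.0283 to 0.0434) and Cox6a2 as higher (0.68, adjusted p = 0.0248). Of the 19 core subunits, 15 were lower and 4 higher in the edgeR fit, with a median of -0.07. The 4 higher ones, Ndufs1, Uqcrc2, Atp5a1 and Atp5b, lay between 0.02 and 0.09. Uqcr11 was at 123, 114, 70.9 and 54.4 CPM in WT and at 50.2, 80.8 and 32.6 in Tau replicates 2 to 4, so that the groups overlapped. Across the 8 against 8 mice, no member separated the genotypes, where 27 of all 17555 genes were higher and 7 lower without overlap. With 7 against 8 no member did either, where 46 of these genes were higher and 29 lower. Such small numbers of genes leave little to read from 0 members.

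Among the members with the widest spread, Cox8b had both high and low mice in every group. It was at 12.6, 3.81, 0.316 and 0.108 CPM in WT, 0.154, 0.328, 7.30 and 9.93 in WT + NR, 1.71, 8.05, 0.109 and 0.166 in Tau and 0.134, 2.71, 0 and 0.534 in Tau + NR. Tau + NR against WT + NR differed by -2.39 ± 1.37 (edgeR adjusted p = 0.781), and genotype over all 16 mice by -1.54 ± 1.12 (adjusted p = 0.739). The 6 mice with the highest Cox8b were the 6 with the highest Ttr, the transthyretin gene that marks choroid plexus, which was at 2339 CPM or more in them and at 396 CPM or less in the other 10. These mice were 2 of WT, 2 of WT + NR, 1 of Tau and 1 of Tau + NR. Summed choroid plexus markers ran from 19.8 to 7952 CPM in WT, 53.3 to 9804 in WT + NR, 19.1 to 4734 in Tau and 59.3 to 3574 in Tau + NR, and none of the 5 was at 0 in all mice. Cox6b2 was at 11.8, 7.06, 1.05 and 3.25 CPM in WT, 2.26, 0.984, 7.90 and 8.24 in WT + NR, 5.13, 5.19, 1.58 and 1.16 in Tau and 0.986, 3.03, 0.672 and 1.80 in Tau + NR. The 5 mice with the highest Cox6b2 were among the 6 with the highest Ttr. The part of choroid plexus tissue in either gene was not tested.

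Ndufa12, an accessory subunit of complex I (chr10:94198720-94221443), also split mice within groups. It was at 62.2, 77.7, 21.5 and 23.5 CPM in WT, 46.0, 22.02, 57.3 and 18.8 in WT + NR, 289, 12.7, 45.5 and 34.8 in Tau and 13.9, 51.3, 14.6 and 26.1 in Tau + NR. Each group held both high and low mice, and Tau + NR against WT + NR differed by -0.45 ± 0.49. Atp5k, the e subunit of the ATP synthase membrane part (chr5:108433244-108434448), was at 86.3, 42.5, 32.2 and 26.7 CPM in WT, 27.4, 29.0, 41.9 and 32.3 in WT + NR, 331, 32.5, 36.8 and 14.2 in Tau and 7.98, 25.2, 5.43 and 35.8 in Tau + NR. Tau + NR replicates 1 and 3 were its lowest mice, as for the summed members.

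The other genes of the pathway were described by the same counts. At p under 0.05, 3.67% of all genes were lower and 2.42% higher in Tau + NR against WT + NR. In Tau + NR against WT + NR, none of the 16 genes of the tricarboxylic acid cycle and pyruvate entry passed p under 0.05 and their median was -0.02. The 47 assembly factors had a median of -0.08 with 4 lower, among them Sdhaf4 (-0.75), Cox11 (-0.69) and Pet100 (-0.65). The 13 mitochondrially encoded subunits, the partners of these members in the same complexes, had a median of 0.10, with 10 higher and 1 of them, mt-Nd6 (0.44), at p under 0.05. Of 14 regulators of mitochondrial genes, Esrra, the nuclear receptor ERR alpha, was lower at that limit (-0.46). In the genotype fit without Tau replicate 1, 5.43% of all genes were higher at p under 0.05 and 7.87% lower. At that limit, 4 mitochondrially encoded genes were higher (mt-Nd1 0.38, mt-Nd2 0.40, mt-Nd5 0.40 and mt-Nd6 0.41), and that list had a median of 0.16. There 12 assembly factors were lower, and their list had a median of -0.11. Cs (citrate synthase) and Ogdh were both higher by 0.18, Esrra was at -0.33, Gabpb2 at -0.45 and Tfam at 0.18.

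For NR within Tau mice without replicate 1, 10.6% of all genes were higher at p under 0.05 and 7.4% lower. The 16 cycle genes had a median of -0.19 with 4 lower at that limit, including Dlat (-0.43) and Mdh2 (-0.35). None of the mitochondrially encoded genes passed it. Among the 14 regulators, Esrrg (0.76), Gabpb2 (0.64) and Gabpa (0.30) were higher at p under 0.05, beside the 10.6% of all genes. With Tau replicate 1, Tau against WT had medians of 0.67 for mitochondrially encoded genes, 0.40 for assembly factors, 0.29 for cycle genes and -0.05 for regulators, beside 1.16 for the members.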

How the data were processed

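Total RNA of 16 hippocampi was reverse transcribed after poly(A) selection with oligo(dT) beads and sequenced by the authors from NEBNext Ultra libraries. Per the labels, the submitters' processing notes name FastQC, Trim Galore and the build mm10, and the paper names STAR for alignment and RSEM for counting, with no strand setting. The authors deposited 1 table of raw counts of 54532 genes, which holds whole numbers, and a listed gene length in bases that is not defined further and was used only for CPM per kb and length classes.

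Counts were fitted with edgeR 4.0.16 (R 4.3.3; TMM, filterByExpr, quasi-likelihood test, Benjamini-Hochberg over all genes). A call was an adjusted p under 0.05 with an absolute log2 fold change over 0.5, or the adjusted p alone for the interaction. SE is the log2 fold change divided by the square root of F. CPM are TMM-normalized, log2 CPM used a prior count of 2, and positions are GRCm38. Depth per mouse, 16490261 to 21915362 counts, sets the counting error. Single genes were compared by exact two-sided permutation of log2 CPM (scipy 1.17.1). The smallest p of 4 against 4 mice is 0.0286, and every gene whose groups do not overlap has it. The p-values set a difference between groups against the spread between these mice. No pair of libraries of a group agreed within counting noise (smallest chi-square per degree of freedom 11.4). The fit was also run on counts simulated from the WT mice with and without NR. These held no library like Tau replicate 1, so the simulation does not bear on comparisons with that mouse.

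Named members were the 8 with the smallest p in each comparison, core subunits, isoform sets, the highest level and largest change per complex and members called by an alternative. Other lists gave up to their 3 smallest p. Some genes these rules name are not reported here. The genes printed mouse by mouse were taken from these after their values were seen, likewise Ndufa12 and Ttr. The members and lists were chosen with earlier results of these data known. Alternatives were DESeq2 1.42.0 and its size factors, other filters (none, or at least 10 counts), all 4 groups in one fit, a replicate block, a removed length trend and 64 fits with 1 mouse left out. DESeq2 with all 4 groups in one fit, and these fits without Tau replicate 1, were chosen after seeing the data. Amino acid sequences were not used here.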

Additional observations from a re-analysis of the deposited data

Results flagged for a closer look

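Within each group of 4 mice, 96 sets of values of single members and complexes were searched for a mouse whose gap to its nearest neighbour exceeds Dixon's 95% limit. Chance alone flags about 1 set in 20. Of 24 sets in the Tau group, 18 were marked, each for Tau replicate 1, and of 72 sets in the other 3 groups, 1 was.

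In Tau replicate 1 the marked sums were 59916 CPM for all members, 17380 CPM for complex I, 1506 CPM for complex II, 5870 CPM for complex III, 19091 CPM for complex IV and 16068 CPM for complex V. The marked genes were Cox8a at 3721 CPM, Cox6a1 at 3244 CPM, Atp5b at 3349 CPM, Uqcr11 at 894 CPM, Atp5g1 at 599.7 CPM, Ndufa3 at 511 CPM, Ndufa1 at 360 CPM, Atp5k at 331 CPM, Ndufa12 at 289 CPM, Ndufb2 at 69.6 CPM, Cox6a2 at 46.0 CPM and Ndufb4c at 17.3 CPM. These come from 1 library and are not separate events. In the same library the microglial markers, the mitochondrially encoded genes and short genes in general were also high, and their part in these values was not tested.

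The remaining one was Ndufb2 in WT replicate 2, at 23.3 CPM against 17.9 to 18.3 CPM in the other WT mice.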

How the results depend on the processing

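Leaving out Tau replicate 1 turned the members' median or shrank it by over 1.5 times in each comparison that used this mouse. With 1 mouse left out at a time, the median log2 fold change of the members ranged from -0.24 to 1.43 in Tau against WT, -1.84 to -0.13 in Tau + NR against Tau, -0.24 to 0.0145 in WT + NR against WT, -0.34 to -0.12 in Tau + NR against WT + NR, -0.24 to 0.51 for genotype and -1.73 to -0.0667 for the interaction, with the end nearest to or past 0 reached without Tau replicate 1 (in WT + NR against WT, without WT replicate 2, and in Tau + NR against WT + NR, without WT + NR replicate 3). Ranges include fits that also changed the model. In Tau against WT, Atp5l ranged from -0.16 to 1.89, Cox6a1 from -0.10 to 1.80, Cox6c from -0.17 to 1.97 and Ndufb9 from -0.10 to 1.75, and for genotype Atp5h from -0.031 to 0.79, Ndufb9 from -0.046 to 0.83, Ndufs4 from -0.0223 to 0.75 and Ndufs5 from -0.10 to 0.82.

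Counts of members at p under 0.05 moved widely. In Tau against WT, 0 members were higher with DESeq2, 14 with DESeq2 in one fit of all groups, 42 with edgeR in one fit, 1 with the length trend removed, 9 without a filter and 1 to 16 with 1 mouse left out, which also gave 0 to 7 lower and 0 to 1 called. In Tau + NR against Tau, 16 were lower with DESeq2, 72 in one fit, 16 with the length trend removed, 60 without a filter and 0 to 68 with 1 mouse left out, with 0 to 2 higher. In Tau + NR against WT + NR, DESeq2 called 1 member. There 0 members were lower and 0 higher in one fit with Tau replicate 1 in it, 1 was lower and 0 higher with DESeq2 in that fit, 2 were higher with the length trend removed, and 11 to 27 were lower and 1 to 2 higher with 1 mouse left out. In WT + NR against WT, 0 to 1 were lower. Counts in Tau against WT rose to 16, 5 and 13 higher members without Tau replicates 2, 3 and 4 and were 1 without any single WT mouse or without Tau replicate 1. For genotype, 0 to 29 were lower and 0 to 5 called with 1 mouse left out. For the interaction, 3 were lower with DESeq2, 8 with a minimum of 10 counts, 4 with the length trend removed, 31 without a filter and 1 to 58 with 1 mouse left out.

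Same-numbered mice are different animals, and the labels tie no number to a batch. Deviations of 24 same-numbered pairs correlated from -0.54 to 0.42 and of 72 other pairs from -0.56 to 0.59. Whether mice of a number shared handling was not tested, and the numbers are used here as names of mice. A replicate block gave medians of 0.47 in Tau against WT, -0.75 in Tau + NR against Tau, -0.09 in WT + NR against WT, -0.25 in Tau + NR against WT + NR, 0.21 for genotype and -1.07 for the interaction. With the block, 1 member was higher in Tau against WT, 0 were lower in Tau + NR against Tau and 1 was lower in the interaction. Without TMM, all 83 levels per kb, which are means over the WT mice with and without NR, moved by less than 1 SD. The TMM factor of Tau replicate 1 was 0.685, against 0.955 to 1.10 in the other mice. TMM thus raised the CPM of that library relative to theirs.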

Other observations

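Ndufb1-ps, which the choice by symbol left out for its name although its transcript is the mouse form of a complex I subunit, was at 50.9, 37.5, 23.9 and 21.4 CPM in WT, 25.3, 21.4, 35.5 and 22.7 in WT + NR, 243, 26.1, 33.9 and 28.5 in Tau and 21.3, 27.0, 18.8 and 25.9 in Tau + NR. Tau replicate 1 was again highest, and the other mice overlapped. Of the 6 symbols left out for low counts, Ndufs6b had 164 counts over the 16 mice, Cox7b2, the testis isoform of Cox7b, 94, Cox6c2 33 and Ndufa11b 1. Cox8c, a testis isoform of Cox8a, and the second Atp5o identifier had 0, which allows up to 3 counts in a library, by counting error only.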
